A study of Caenorhabditis elegans with 20 samples.

Results

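The cytochrome P450 (cyp), UDP-glucuronosyltransferase (ugt) and glutathione transferase (gst) genes of Caenorhabditis elegans were examined in whole worms of 2 transgenic strains at 2 ages. A gene was a member if its WormBase name starts with cyp-, ugt- or gst- and it reached 10 counts in any of the 20 libraries. This gave 93 members of 181 such genes in the count table, and of 21383 genes in all. The members were 30 of 73 cyp genes, 40 of 66 ugt genes and 23 of 42 gst genes. The other 88 genes stayed below the threshold, and 4 of these had no count in any library. At the threshold itself, 9 members had a highest count of 10 and 8 genes left out had a highest count of 9. Only 25 members reached 100 counts in any library, so many values below rest on few reads.

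Animals detoxify small molecules in steps, and each of these families carries out a kind of step. Cytochromes P450 oxidise a substrate with electrons that a reductase supplies. Glucuronosyltransferases attach a sugar from a UDP donor, and glutathione transferases attach the thiol peptide glutathione, after which exporters remove the conjugates. In the worm much of this takes place in the intestine, and the nematode lineage has expanded all of these families into tandem arrays of similar genes. Some members also make or break down signalling lipids, steroids and eggshell lipids.

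The overexpressing worms (OE, strain SD1963) carried a multi-copy extrachromosomal array. It held elt-2 joined to GFP and driven by upstream sequence of elt-2, with the unc-54 3′ end and the rescue gene unc-119(+), and a single line was sequenced. Its product binds GATA sites and acts in intestinal cells. The control worms (control, strain SD1965) carried a similar plasmid with unc-119(+) but without the elt-2 promoter, elt-2 or GFP, and both strains had the background unc-119(ed3);rde-1(ne300). Each strain was collected as L4 larvae from normal plates with OP50 bacteria and at Day 13 of adulthood from plates with FUDR, which blocks progeny, after repeated washing over mesh. The 4 groups, OE Day 13, control Day 13, OE L4 and control L4, had 5 libraries each, which the titles letter A to E, and each library came from a pooled population. The label text on growth names N2 worms for the L4 stage while the strain labels of the same samples name the transgenic strains. Age, developmental stage and FUDR cannot be told apart in the comparison of Day 13 with L4, and in whole worms fewer cells of a type cannot be told apart from less RNA per cell.

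Libraries held 10749795 to 42317549 counts, and 3 counts in a library, the least that can be told from absence, corresponded to 0.0970 to 0.177 CPM (counts per 1000000 counts, scaled by TMM factors). The assay reads 1 stretch at the 3′ end of a transcript, so CPM can be compared between genes without a length correction. The members took 0.00766% to 0.192% of the counts of a library. elt-2 itself had 139 to 181 counts in OE Day 13 libraries against 24 to 38 in control Day 13, and 76 to 225 in OE L4 against 17 to 59 in control L4. In CPM it lay at 5.37 to 7.41 in OE Day 13 against 0.958 to 1.34 in control Day 13. At L4 the strains overlapped, with 3.15 to 10.15 CPM in OE against 0.674 to 3.49 CPM in control worms. The elt-2 of the array ends in the unc-54 3′ end, and how many of its reads these counts hold was not tested. Libraries of letters A to C stood apart from letters D and E. In each group A to C were the deeper libraries, with 22338800 to 42317549 counts over the groups, against 10749795 to 25967701 counts in D and E. The yolk gene vit-2, which hermaphrodites switch on as adults, had 1608 to 2141 CPM in OE L4 and 854 to 3423 CPM in control L4 libraries of letters A to C. In letters D and E it had 42.7 to 50.2 CPM in OE L4 and 0.473 to 5.45 CPM in control L4. The L4 libraries A to C thus held an adult transcript at a level that D and E did not, and values within each set of letters are given for several members.

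The members lie in groups along the chromosomes. Of the 23 gst members 15 are on chromosome II, while 18 of 30 cyp and 21 of 40 ugt members are on chromosome V. Members no more than 20000 bases apart form 14 runs of 2 to 6 genes on the WBcel235 assembly. One run holds gst-20, gst-24, gst-15, gst-12 and gst-16 (chromosome II, 13608154 to 13624440), and another holds gst-26, gst-27, gst-28, gst-29, gst-39 and gst-31 (chromosome II, 15163817 to 15174965). The study's methods scale counts by uniquely mapped reads, so reads that match close copies equally well may have been dropped, and values of neighbours in a run are uncertain to that extent. Of the members named below, cyp-36A1, cyp-37A1, cyp-44A1, gst-5, gst-36, gst-40, ugt-22, ugt-47, ugt-50 and ugt-64 overlap another coding gene, and whether the counting used strand is not given in the sources used here.

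The first question was how the families differed between Day 13 and L4. In OE worms 24 of 43 tested members passed a false discovery rate of 10% (edgeR quasi-likelihood test, Benjamini-Hochberg), 5 higher and 19 lower at Day 13, where 49.2% of all tested genes passed, 25.8% higher and 23.4% lower. In control worms 21 of 39 tested members passed, 5 higher and 16 lower, beside 45.6% of all genes, 21.9% higher and 23.7% lower. The share of members called was not far from that of all genes, while their split between directions was uneven. The median log2 change was -1.23 for the tested members and 0.22 for all tested genes in OE worms, and -0.85 and 0.12 in control worms. The falls lay mostly in the transferases. Of the tested gst members, 8 of 13 fell and 1 rose in OE worms, and 7 of 11 fell and 1 rose in control worms. Of the tested ugt members, 9 of 17 fell and 2 rose in OE worms, and 7 of 15 fell and 2 rose in control worms. The cyp members were fewer, with 2 falls and 2 rises among 13 tested in either strain. Members called in both strains numbered 18, and all 18 moved in the same direction, 4 higher and 14 lower at Day 13. No share over all genes is given for these counts, so the agreement is not read as a trait of the members. Both fits ran on separate libraries, and both carry the same differences in stage, plates and letters.

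Markers of several tissues moved with age as well. Summed over 9 intestinal marker genes found in the table, CPM ranged from 244 to 1115 (median 654) in OE Day 13 against 1380 to 5876 (median 1693) in OE L4, and from 377 to 2710 (median 2199) in control Day 13 against 3060 to 5958 (median 3695) in control L4. Of these 9 genes, 6 fell in OE worms and 5 in control worms by the same test, among them the intestinal actin act-5, and none was at 0 in any group. Most of the sum came from mtl-2 at Day 13, with means of 553 CPM in OE and 1374 CPM in control worms. At L4 it came mostly from asp-1 and mtl-2, with means of 1863 and 595 CPM in OE and 2547 and 1304 CPM in control worms. Of these 2 genes asp-1 fell in both strains, while mtl-2 passed in neither. All 6 body muscle markers fell in both strains. The 6 hypodermis and cuticle markers summed to medians of 1.07 CPM in OE Day 13 against 1608 in OE L4, and 3.85 CPM in control Day 13 against 3952 in control L4. Most of the L4 sum came from the collagen genes dpy-13, sqt-1 and rol-6. All 6 fell in OE worms and 5 in control worms, where elt-3 did not pass (-1.06 ± 0.72, SE, edgeR adjusted p = 0.264). The part of these marker changes in the changes of members was not tested.

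**Figure D1:**
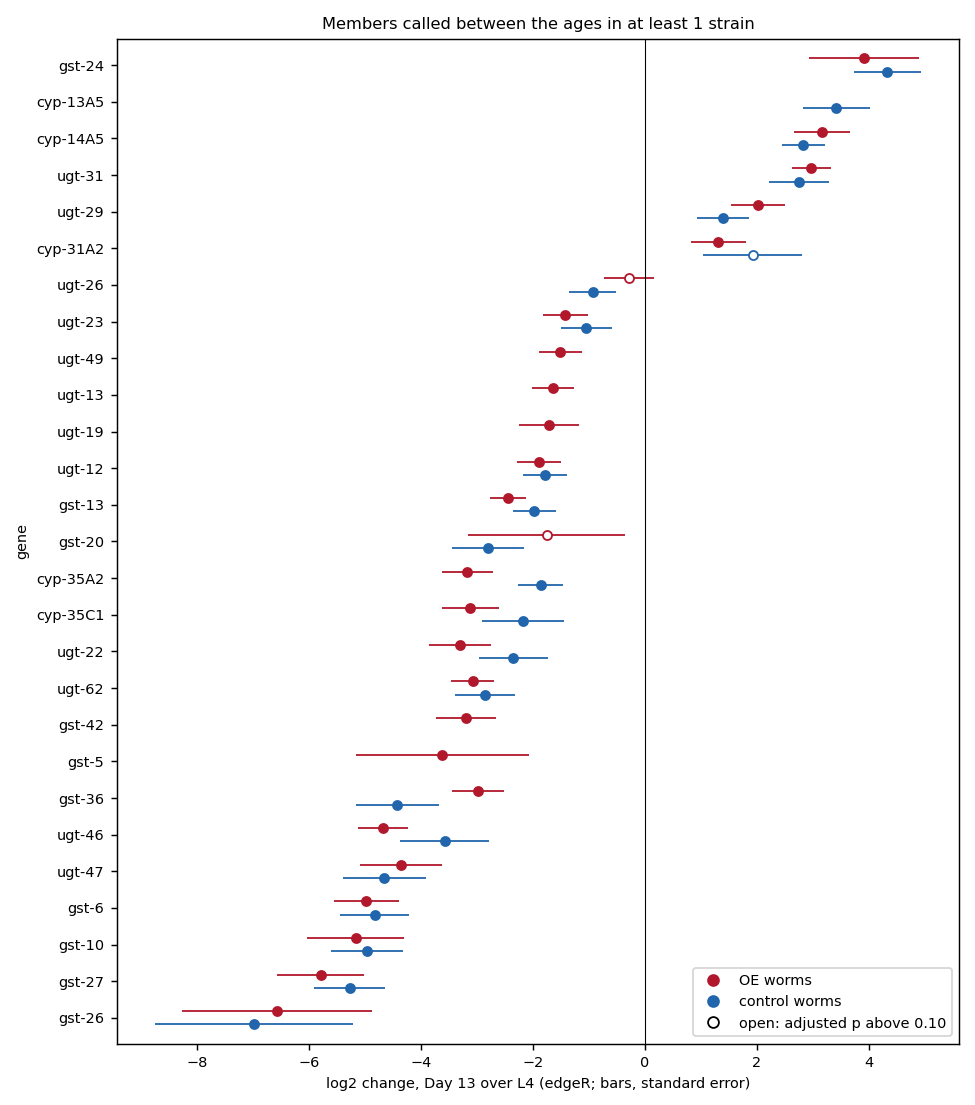
Log2 change between Day 13 and L4 (x axis, edgeR, bars are the standard error) of the 27 members called in at least 1 strain (y axis), in OE worms (red, above) and control worms (blue, below). Open points did not pass and a missing point was not tested. The 4 genes called higher in both strains are gst-24, cyp-14A5, ugt-31 and ugt-29, and the lowest values belong to gst-26, gst-27, gst-10 and gst-6.

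Among the glutathione transferases gst-24 stood far above all others at Day 13. gst-24 (F37B1.1, chromosome II, 13610443 to 13611366, minus strand) encodes a cytosolic glutathione transferase. It measured 85, 61.9, 1011, 899.6 and 565 CPM in OE Day 13 libraries A to E, against 24.5, 12.9, 5.48, 33.4 and 88.2 CPM in OE L4. In control worms it measured 789, 579, 867, 682 and 379.7 CPM at Day 13 against 22.6, 10.6, 13.5, 42 and 57.5 CPM at L4. All control libraries were higher at Day 13, and in OE worms Day 13 libraries A and B lay below the highest L4 library, E, while C, D and E lay far above. The log2 change was 3.91 ± 0.98 in OE worms (SE, edgeR adjusted p = 0.00861) and 4.33 ± 0.60 in control worms (SE, edgeR adjusted p = 0.000289), or 15-fold and 20.1-fold. It was 4.58 and 5.25 in letters A to C and 3.63 and 3.39 in letters D and E. gst-24 made up 88.5% ± 5.39 of the summed CPM of the 23 gst members in OE Day 13 and 19.02% ± 6.71 in OE L4, and 93.3% ± 6.41 in control Day 13 and 19.9% ± 5.83 in control L4 (SD, n = 5 each).

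Without gst-24 the gst members summed to 12.4 to 101 CPM in OE Day 13 against 30.8 to 446 CPM in OE L4, and to 12.6 to 108 CPM in control Day 13 against 37.1 to 319 CPM in control L4. The ranges overlapped, and libraries D and E were the highest in each group. Within the family most tested genes fell, and those that fell most were almost silent at Day 13.

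gst-26 and gst-27 lie side by side on chromosome II. gst-26 (Y53F4B.29, chromosome II, 15163817 to 15164553) measured 0.0323, 0, 0.131, 0.232 and 1.95 CPM in OE Day 13 libraries A to E against 3.45, 2.98, 2.82, 79.5 and 120.4 CPM in OE L4. Control worms had 0, 0, 0, 0.776 and 0.361 CPM at Day 13 against 1.35, 1.89, 2.09, 79.4 and 58.3 CPM at L4. No Day 13 library reached any L4 library in either strain, and in the L4 groups letters D and E were far above A to C. The log2 change was -6.57 ± 1.70 in OE worms (SE, edgeR adjusted p = 0.00977) and -6.98 ± 1.77 in control worms (SE, edgeR adjusted p = 0.01). Day 13 counts ran from 0 to 48 in OE and from 0 to 24 in control worms, so the size of the fitted fall is loose. gst-27 (Y53F4B.30, chromosome II, 15164890 to 15165731) measured 0.097, 0.0933, 0.174, 0.463 and 0.122 CPM in OE Day 13 against 6.49, 2.85, 4.81, 13.9 and 23 CPM in OE L4, with a log2 change of -5.79 ± 0.77 (SE, edgeR adjusted p = 0.000154). The control values were 0.342, 0.247, 0.429, 0.291 and 0.406 CPM at Day 13 against 5.51, 5.95, 3.75, 17.6 and 26.7 CPM at L4, a log2 change of -5.27 ± 0.63 (SE, edgeR adjusted p = 0.000124). It too did not overlap between the ages.

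gst-10 (Y45G12C.2, chromosome V, 2561690 to 2564645), whose protein conjugates the lipid peroxidation product 4-hydroxynonenal, measured 0, 0.0933, 0.174, 0.0772 and 0.406 CPM in OE Day 13 against 2.9, 1.8, 2.32, 7.09 and 11.7 CPM in OE L4. In control worms it measured 0.137, 0.0353, 0.0661, 0.227 and 0.271 CPM at Day 13 against 1.82, 2.67, 2.09, 5.45 and 8.69 CPM at L4. All Day 13 libraries lay below all L4 libraries of their strain. The log2 change was -5.17 ± 0.87 in OE worms (SE, edgeR adjusted p = 0.000712) and -4.97 ± 0.64 in control worms (SE, edgeR adjusted p = 0.000189). gst-6 also fell, with log2 changes of -4.98 ± 0.58 in OE and -4.83 ± 0.62 in control worms (SE, edgeR adjusted p = 5.85e-05 and 0.000177), with 0 to 3 counts in OE Day 13 libraries against 32 to 76 in OE L4, and 0 to 4 in control Day 13 against 19 to 65 in control L4. Its neighbour gst-7 is the contrast: it measured 7.28, 6.95, 7.67, 20.1 and 51.6 CPM in OE Day 13 against 8.27, 7.88, 8.17, 24.1 and 31.8 CPM in OE L4, and 6.4, 5.48, 7.5, 65.6 and 23.9 CPM in control Day 13 against 5.15, 1.85, 5.95, 35.9 and 22.5 CPM in control L4. The ages overlapped for gst-7 in both strains, and its log2 changes of 0.14 ± 0.69 and 0.55 ± 0.89 did not pass (SE, edgeR adjusted p = 0.884 and 0.655).

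gst-20 (Y48E1B.10, chromosome II, 13608154 to 13609824) is the neighbour of gst-24 and went the other way. Control worms had 4.96, 3.5, 8.1, 15.4 and 8.61 CPM at Day 13 against 50.05, 17.2, 17.9, 77.7 and 94.8 CPM at L4, without overlap, and fell with a log2 change of -2.81 ± 0.64 (SE, edgeR adjusted p = 0.00568). In OE worms it measured 0.194, 0.186, 25.7, 25.4 and 19.4 CPM at Day 13 against 40.6, 7.04, 0.456, 44.5 and 132 CPM at L4. The OE values were widely spread within each age, and the log2 change of -1.76 ± 1.40 did not pass (SE, edgeR adjusted p = 0.335), though in letters D and E alone it was -1.94 and passed (edgeR adjusted p = 0.009). In OE Day 13 letters A and B were the low libraries for gst-20 and for gst-24, and in OE L4 letter C was the lowest for both. The summed intestinal markers were also lowest in OE Day 13 letters A and B, at 322 and 244 CPM against 654 to 1115 CPM in C to E, and in OE L4 letter C, at 1380 CPM. Most of the OE Day 13 sum was mtl-2, at 295 and 196 CPM in A and B against 582 to 1033 CPM in C to E. The neuron marker sum was also lowest in OE Day 13 letters A and B, at 19.4 and 24.4 CPM against 25.4 to 32.99 CPM in C to E. In OE L4 it was lowest in letter C, at 22.8 CPM. No other tissue list had its lowest OE Day 13 sums in A and B. The part of these markers in the spread of gst-20 and gst-24 was not tested. The other genes of that run, gst-15, gst-12 and gst-16, stayed below 1 CPM in all 20 libraries.

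Among the remaining gst members, gst-13 measured 0.388, 0.513, 0.567, 0.347 and 0.447 CPM in OE Day 13 against 3.25, 1.64, 3.28, 1.92 and 1.94 CPM in OE L4, and 0.616, 0.247, 0.198, 0.518 and 0.316 CPM in control Day 13 against 1.23, 1.32, 1.23, 1.15 and 1.48 CPM in control L4. The libraries of the ages did not overlap, and gst-13 fell, with log2 changes of -2.46 ± 0.32 in OE and -1.98 ± 0.39 in control worms (SE, edgeR adjusted p = 0.000132 and 0.00252). gst-36, named after its values were seen, also fell, with log2 changes of -2.98 ± 0.46 in OE and -4.42 ± 0.74 in control worms (SE, edgeR adjusted p = 0.000354 and 0.000878). It lay at 0.0813 to 0.309 CPM in OE Day 13 against 0.751 to 2.45 CPM in OE L4, and at 0 to 0.141 CPM in control Day 13 against 0.793 to 3.08 CPM in control L4. gst-42, the orthologue of maleylacetoacetate isomerase of tyrosine breakdown, measured 0.226, 0.0466, 0.131, 0.0386 and 0.0813 CPM in OE Day 13 against 0.683, 0.713, 0.664, 0.98 and 1.9 CPM in OE L4. It fell with a log2 change of -3.20 ± 0.53 (SE, edgeR adjusted p = 0.000597), without overlap, and was too low to be tested in control worms. gst-5 measured 0.0647, 0.0933, 0.0872, 2.2 and 2.56 CPM in OE Day 13 against 0.444, 0.377, 0.622, 15.7 and 40.2 CPM in OE L4, and its call (log2 change -3.62 ± 1.54, SE, edgeR adjusted p = 0.0815) was lost when any of 5 libraries was left out: OE Day 13 A, B or C, or OE L4 D or E. Without OE L4 E the change was -2.18.

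gst-39, also named after its values were seen, had levels far apart between the letters. It measured 0.205, 0.106, 0.363, 10.3 and 6.45 CPM in control Day 13 against 1.47, 0.927, 0.685, 37.5 and 49.2 CPM in control L4. Every same-letter pair was lower at Day 13, yet letters D and E at Day 13 lay above A to C at L4. The log2 change of -2.42 ± 1.46 did not pass (SE, edgeR adjusted p = 0.211). With the letter as a replicate block, since same-letter libraries of control worms deviated together, it was -2.49 and passed (edgeR adjusted p = 0.00166). DESeq2 called it lower without a block as well (adjusted p = 0.0657). With the block edgeR also called cyp-31A2 (1.70, adjusted p = 0.0232), cyp-23A1 (-0.95, adjusted p = 0.0734) and ugt-64 (-0.94, adjusted p = 0.0445) in control worms, and without it DESeq2 called cyp-31A2 and cyp-23A1 (adjusted p = 0.0573 and 0.0752) but not ugt-64. gst-1, a pi-class transferase, lay at 2.14 to 20.1 CPM in OE Day 13 against 1.78 to 15.1 CPM in OE L4, and 1.49 to 18.1 CPM in control Day 13 against 1.1 to 18.1 CPM in control L4, with almost complete overlap.

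**Figure D2:**
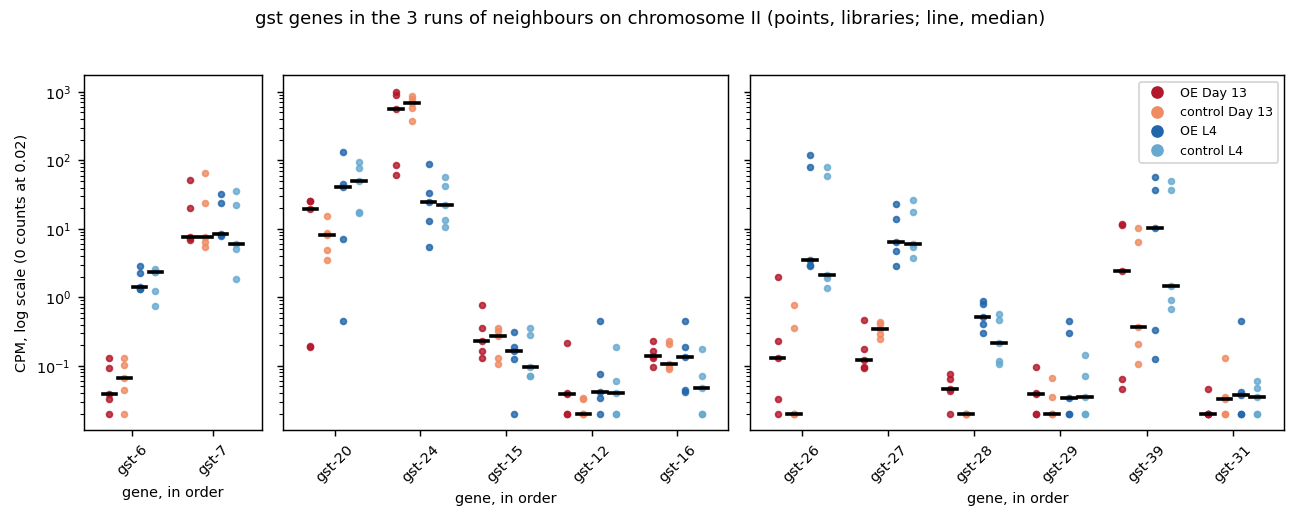
CPM per library (y axis, log scale, 0 counts drawn at 0.02) of gst genes in the 3 runs of neighbours on chromosome II, in chromosome order (x axis). Colours are the 4 groups and black lines their medians. gst-24 is higher at Day 13 between gst-20, which is lower in control worms, and the near-silent gst-15, and gst-6 is lower beside gst-7, whose ages overlap.

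Among the glucuronosyltransferases the falls again outnumbered the rises. ugt-46 (B0310.5, chromosome X, 525928 to 530289) measured 0.324, 0.14, 0.131, 0.0386 and 0.203 CPM in OE Day 13 libraries A to E against 3.59, 4.07, 5.06, 4.07 and 4.69 CPM in OE L4. The control values were 0.0684, 0, 0.0991, 0.55 and 0.496 CPM at Day 13 against 1.31, 1.75, 1.44, 4.01 and 4.55 CPM at L4. The ages did not overlap, and the log2 change was -4.68 ± 0.45 in OE worms (SE, edgeR adjusted p = 2.39e-05) and -3.58 ± 0.80 in control worms (SE, edgeR adjusted p = 0.0052). ugt-47 (R04B5.9, chromosome V, 10096305 to 10098597) measured 0.453, 0.186, 0, 0.0386 and 0.203 CPM in OE Day 13 against 5.53, 2.98, 4.9, 3.81 and 1.22 CPM in OE L4. In control worms it measured 0.547, 0.212, 0.0661, 0.0323 and 0.226 CPM at Day 13 against 6.46, 6.49, 5.26, 2.72 and 1.36 CPM at L4. It fell, with log2 changes of -4.36 ± 0.73 in OE and -4.66 ± 0.74 in control worms (SE, edgeR adjusted p = 0.000654 and 0.000663), again without overlap.

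ugt-22 and ugt-62 fell in both strains too. ugt-22 measured 0.194, 0.886, 0.131, 0.154 and 0.244 CPM in OE Day 13 against 2.8, 4.28, 1.66, 3.85 and 2.66 CPM in OE L4, and 0.103, 0.813, 0.198, 0.582 and 0.722 CPM in control Day 13 against 1.07, 3.38, 0.793, 2.96 and 2.48 CPM in control L4. Its OE libraries did not overlap, while control Day 13 B, at 0.813 CPM, lay just above control L4 C, at 0.793 CPM. The log2 change was -3.31 ± 0.55 in OE worms (SE, edgeR adjusted p = 0.000626) and -2.36 ± 0.62 in control worms (SE, edgeR adjusted p = 0.012). The annotation lists 14 genes on the opposite strand and 6 on the same strand that overlap ugt-22, 1 of them coding, so its count is uncertain. ugt-62 lay at 0.163 to 0.27 CPM in OE Day 13 against 1.12 to 2.75 CPM in OE L4, and at 0.0647 to 0.496 CPM in control Day 13 against 0.937 to 1.54 CPM in control L4, and fell with log2 changes of -3.08 ± 0.38 in OE and -2.86 ± 0.53 in control worms (SE, edgeR adjusted p = 8.76e-05 and 0.00175). The other 5 ugt members that fell in OE worms had log2 changes of -1.89 to -1.42, and the other 3 that fell in control worms -1.79 to -0.94 (edgeR). ugt-16 stayed near the floor in all groups, at no more than 0.452 CPM, and was not tested between the ages.

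ugt-31 and ugt-29 were the ugt members that rose. ugt-31 (Y39G10AR.6, chromosome I, 2333338 to 2338693) measured 3.01, 5.36, 3.66, 3.75 and 3.01 CPM in OE Day 13 against 0.478, 0.293, 0.705, 0.49 and 0.316 CPM in OE L4. Control worms had 1.81, 4.88, 2.77, 4.3 and 4.74 CPM at Day 13 against 0.396, 0.82, 0.108, 0.573 and 0.414 CPM at L4. All Day 13 libraries were above all L4 libraries of their strain, and the log2 change was 2.97 ± 0.35 in OE worms (SE, edgeR adjusted p = 6.33e-05) and 2.75 ± 0.53 in control worms (SE, edgeR adjusted p = 0.00226). ugt-29 measured 1.78, 2.75, 2.4, 1.62 and 2.03 CPM in OE Day 13 against 0.649, 0.503, 1.04, 0.113 and 0.226 CPM in OE L4, and 3.76, 4.73, 3.21, 1.81 and 1.71 CPM in control Day 13 against 1.11, 0.606, 1.77, 0.478 and 0.887 CPM in control L4. It rose by 2.01 ± 0.48 and 1.39 ± 0.46 on the log2 scale (SE, edgeR adjusted p = 0.00622 and 0.0337), and only control worms showed overlap between the ages.

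The most abundant ugt member was ugt-50, with 57.1% ± 5.74 of the summed ugt CPM in OE Day 13 and 28.4% ± 9.02 in OE L4, and 44.3% ± 11.5 in control Day 13 and 41.8% ± 5.52 in control L4 (SD, n = 5 each). It measured 19.6, 42.1, 27.8, 18.9 and 20.2 CPM in OE Day 13 against 7.96, 12, 8.59, 18.9 and 19.9 CPM in OE L4, and 34.1, 27.5, 22.8, 13.1 and 8.16 CPM in control Day 13 against 15, 25.3, 17.2, 19.6 and 29.6 CPM in control L4. The ages overlapped in both strains, and the log2 changes of 0.86 ± 0.42 and -0.26 ± 0.48 did not pass (SE, edgeR adjusted p = 0.122 and 0.694). The letters differed, since in A to C alone ugt-50 rose in OE worms without overlap, by 1.44 on the log2 scale (edgeR adjusted p = 0.0166), against 0.05 in D and E. In control worms it fell in D and E alone, with a log2 change of -1.23 (edgeR adjusted p = 0.0359), against 0.17 in A to C. The summed CPM of the 40 ugt members overlapped between the 4 groups, with 44.4 ± 12.96 in OE Day 13 and 46.4 ± 6.07 in OE L4, and 45.4 ± 13.7 in control Day 13 and 50.4 ± 8.08 in control L4 (SD, n = 5 each), although single members such as ugt-46 and ugt-31 changed.

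**Figure D3:**
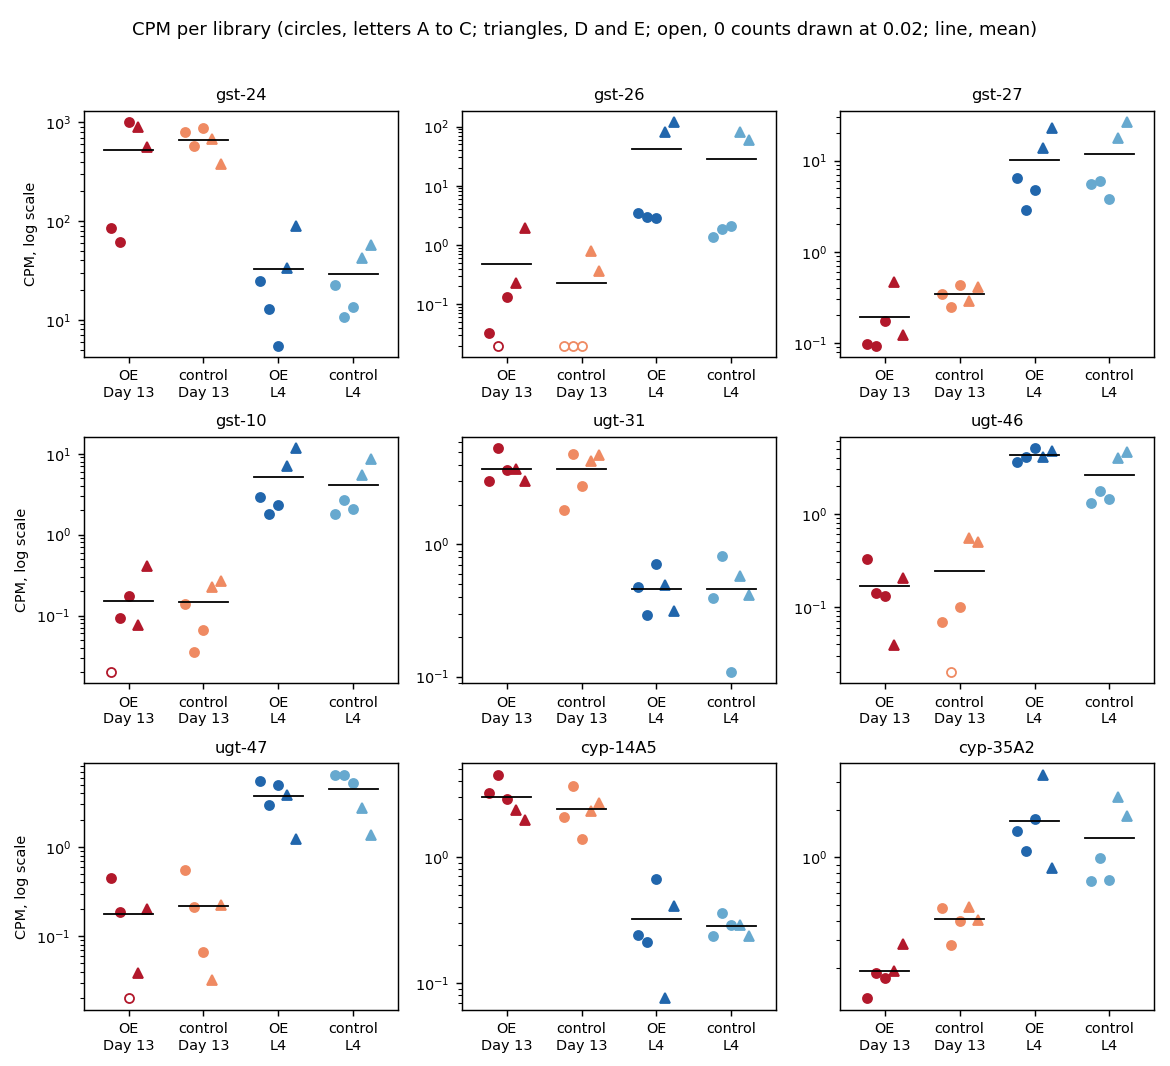
CPM per library (y axis, log scale, 0 counts drawn open at 0.02) of 9 members in the 4 groups (x axis), with the mean as a line. Circles are letters A to C and triangles letters D and E. gst-24, ugt-31 and cyp-14A5 lie higher at Day 13, while gst-26, gst-27, gst-10, ugt-46, ugt-47 and cyp-35A2 lie lower.

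Of the cytochromes P450, cyp-14A5 (F08F3.7, chromosome V, 5421018 to 5423282) rose in both strains. It measured 3.2, 4.48, 2.88, 2.35 and 1.95 CPM in OE Day 13 libraries A to E against 0.239, 0.21, 0.664, 0.0754 and 0.406 CPM in OE L4. The control values were 2.05, 3.6, 1.39, 2.3 and 2.66 CPM at Day 13 against 0.238, 0.356, 0.288, 0.287 and 0.236 CPM at L4. The ages did not overlap, and the log2 change was 3.16 ± 0.49 in OE worms (SE, edgeR adjusted p = 0.000407) and 2.83 ± 0.39 in control worms (SE, edgeR adjusted p = 0.00028). cyp-13A5, of a subfamily related to mammalian CYP3 enzymes, was tested in control worms only. There it measured 0.684, 1.2, 0.925, 0.809 and 0.857 CPM at Day 13 against 0.0396, 0.0356, 0, 0.239 and 0.0591 CPM at L4 and rose by 3.41 ± 0.60 on the log2 scale (SE, edgeR adjusted p = 0.0012). Its OE values were 0.259, 0.7, 0.305, 0.54 and 0.0813 CPM at Day 13 against 0.0342, 0.168, 0.249, 0.113 and 0 CPM at L4, most of them near the floor.

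The cyp-35 subfamily holds genes that foreign compounds induce, and cyp-35A2 also affects fat stores. cyp-35A2 (C03G6.15, chromosome V, 7362319 to 7364182) measured 0.129, 0.186, 0.174, 0.193 and 0.284 CPM in OE Day 13 against 1.47, 1.09, 1.74, 3.32 and 0.857 CPM in OE L4. In control worms it measured 0.479, 0.283, 0.397, 0.485 and 0.406 CPM at Day 13 against 0.713, 0.998, 0.721, 2.39 and 1.83 CPM at L4. It fell without overlap in both strains, with a log2 change of -3.18 ± 0.45 in OE worms (SE, edgeR adjusted p = 0.000221) and -1.86 ± 0.40 in control worms (SE, edgeR adjusted p = 0.00426). cyp-35C1 measured 0.226, 0.14, 0.0436, 0.193 and 0.284 CPM in OE Day 13 against 2.02, 0.713, 1.45, 2.56 and 0.902 CPM in OE L4, and fell with a log2 change of -3.12 ± 0.50 (SE, edgeR adjusted p = 0.000505). Control worms had 0.0342, 0.106, 0.0991, 0.356 and 0.541 CPM at Day 13 against 0.674, 0.784, 0.108, 1.77 and 1.24 CPM at L4, and the log2 change of -2.18 ± 0.73 (SE, edgeR adjusted p = 0.0354) was not called without control Day 13 C. cyp-35A3, which was too low to be tested over all letters, lay at 0.0386 to 0.163 CPM in OE Day 13 against 0.168 to 2.6 CPM in OE L4, and at 0.0342 to 0.226 CPM in control Day 13 against 0.18 to 2.2 CPM in control L4. In letters D and E alone cyp-35A3 was tested and called lower at Day 13 in both strains (edgeR). All cyp-35 members were thus low at Day 13, at no more than 0.541 CPM.

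cyp-31A2 and cyp-31A3 are near-identical copies whose proteins act in forming the lipid layer of the eggshell, and their counts may be shared. cyp-31A2 measured 2.2, 2.42, 0.697, 1.35 and 4.55 CPM in OE Day 13 against 1.13, 0.587, 0.871, 0.49 and 1.26 CPM in OE L4. It rose by 1.31 ± 0.48 (SE, edgeR adjusted p = 0.0493), a call that was lost in letters A to C alone and without OE Day 13 E, OE L4 B or OE L4 D. The control values were 0.547, 0.389, 0.297, 4.17 and 1.22 CPM at Day 13 against 0.277, 0.178, 0.0721, 1.05 and 0.0591 CPM at L4, and letter D was the highest library at either age. cyp-31A3 measured 4.08, 2.05, 1.79, 1.89 and 0.853 CPM in OE Day 13 against 1.98, 1.05, 1.41, 0.339 and 0.226 CPM in OE L4, and 0.992, 0.53, 0.76, 1.52 and 2.12 CPM in control Day 13 against 1.11, 0.321, 0.685, 0.525 and 0.0591 CPM in control L4. It was higher at Day 13 in 5 of 5 OE pairs and 4 of 5 control pairs, but its changes of 1.05 ± 0.57 and 0.86 ± 0.59 did not pass (SE, edgeR adjusted p = 0.161 and 0.267). In letters D and E alone it rose in both strains, by 2.27 and 2.54 (edgeR adjusted p = 0.0166 and 0.0176), and in A to C the changes were 0.59 and -0.21. The sum over 8 germ line and oocyte markers, beside these eggshell genes, had a median of 401 CPM in OE Day 13 against 367 CPM in OE L4, and 459.9 CPM in control Day 13 against 617 CPM in control L4. Most of that sum came from pgl-1 and glh-1, and the list did not move as one. In OE worms glp-1, puf-5, rme-2, cbd-1 and oma-1 rose, with log2 changes of 1.26 to 2.09, and none of the 8 fell. In control worms puf-5, cbd-1 and oma-1 rose, with log2 changes of 1.70 to 2.63, and glh-1 fell, with a log2 change of -1.81 (edgeR). The part of these oocyte genes in the changes of cyp-31A2 and cyp-31A3 was not tested.

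The most abundant cyp member was cyp-37A1, of a family related to mammalian CYP4 enzymes. It measured 1, 1.07, 6.8, 6.53 and 8.45 CPM in OE Day 13 against 5.4, 4.24, 2.12, 21.9 and 18.9 CPM in OE L4, and 16.6, 18.3, 22.9, 11.3 and 5.82 CPM in control Day 13 against 11.5, 18.3, 12.9, 26.6 and 29.3 CPM in control L4. The ages overlapped in both strains and neither change passed. In letters D and E alone it fell in both, with log2 changes of -1.41 in OE and -1.72 in control worms (edgeR adjusted p = 0.0241 and 0.00786), against -0.59 and 0.06 in A to C. cyp-44A1, a mitochondrial P450, lay at 1 to 7.4 CPM in OE Day 13 against 1.02 to 4.26 CPM in OE L4, and 0.463 to 7.02 CPM in control Day 13 against 0.108 to 5.45 CPM in control L4. cyp-36A1, which acts downstream of the hypoxia factor HIF-1, lay at 0.284 to 1.26 CPM in OE Day 13 against 0.0902 to 0.996 CPM in OE L4, and 0.18 to 2.23 CPM in control Day 13 against 0.118 to 1.59 CPM in control L4. Neither gene passed in either strain. cyp-33E2, whose enzyme makes an eicosanoid in the pharynx, had at most 12 counts in a library, and cyp-29A2 and cyp-33E1 stayed at or below 1.10 CPM.

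The wider detoxification pathway was counted for the same comparison with a list of 55 other genes. In OE worms 8 rose and 9 fell of 37 tested, and in control worms 4 rose and 6 fell of 36 tested. Of all tested genes 25.8% rose and 23.4% fell in OE worms, and 21.9% rose and 23.7% fell in control worms. Of 4 tested flavin monooxygenases 2 fell and 0 rose in either strain. Among regulators, the xenobiotic nuclear receptor nhr-8 fell to 0.210 ± 0.135 CPM in OE Day 13, against 4.19 ± 2.97 CPM in OE L4, and to 0.115 ± 0.103 CPM in control Day 13, against 6.46 ± 5.72 CPM in control L4 (SD, n = 5 each), with log2 changes of -4.37 ± 0.63 and -6.15 ± 0.87 (SE, edgeR adjusted p = 0.000241 and 0.000314). skn-1, the Nrf-type activator of many transferase genes, had changes of 0.51 ± 0.31 and 0.74 ± 0.35 that did not pass (SE, edgeR adjusted p = 0.199 and 0.117), while its repressor wdr-23 rose by 1.22 ± 0.34 and 0.90 ± 0.35 (SE, edgeR adjusted p = 0.0146 and 0.0646). The regulator nhr-49 also rose, by 1.079 ± 0.297 and 0.815 ± 0.343 (SE, edgeR adjusted p = 0.0132 and 0.0816). emb-8, the reductase that feeds electrons to cytochromes P450, did not pass, with 2.39 ± 0.599 CPM in OE Day 13 and 2.08 ± 0.437 CPM in OE L4, and 2.25 ± 0.237 CPM in control Day 13 and 1.53 ± 0.484 CPM in control L4 (SD, n = 5 each). Of 11 tested exporters 5 rose and 4 fell in OE worms, and 2 rose and 3 fell in control worms. Among them mrp-5 rose in both strains, by 1.48 ± 0.37 and 1.76 ± 0.36 (SE, edgeR adjusted p = 0.00778 and 0.00294), and mrp-3 fell, with log2 changes of -1.84 ± 0.35 and -2.12 ± 0.48 (SE, edgeR adjusted p = 0.00145 and 0.00568). The exporter mrp-7 also rose and pgp-9 also fell in both strains. No gene of the list of enzymes that supply glutathione, gcs-1, gss-1 and gsr-1, was called.

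The second question was whether the members differed between OE and control worms of the same age. At Day 13, 0 of 28 tested members passed, beside 0.0117% of all tested genes. Of the members 3 had an unadjusted p under 0.05 (edgeR), beside 1125 of all 8544 tested genes, and DESeq2 called 2. At L4, 0 of 46 passed, beside 0.0345% of all genes. There 1 member had an unadjusted p under 0.05 (edgeR), beside 911 of all 8696 tested genes, and DESeq2 called 1. With the letter as a replicate block 0 members passed at either age. The block gave 3 members at Day 13 and 8 at L4 an unadjusted p under 0.05 (edgeR). Shares over all genes are not given for the block or for DESeq2. The 35 tested genes of the wider pathway list gave no call at either age. The difference of age changes between the strains was tested over all 20 libraries and 0 of 62 members passed, where 0% of all genes did. Of the members, 2 had an unadjusted p under 0.05 (edgeR), ugt-45 and cyp-35A2, beside 266 of all 10545 tested genes, and DESeq2 called 0.

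The members nearest to a strain difference at Day 13 were ugt-45, cyp-13A5 and cyp-37A1, all lower in OE worms. ugt-45 measured 0.873, 0.979, 2.09, 1.2 and 1.95 CPM in OE Day 13 libraries A to E against 12.4, 10.4, 9.78, 1.52 and 1.49 CPM in control Day 13. Letters A to C were lower in OE worms, without overlap, and letters D and E of the strains overlapped. The log2 change was -2.32 ± 0.63 (SE, edgeR unadjusted p = 0.00281, adjusted p = 0.315), and -3.12 in letters A to C and 0.03 in D and E. At L4 it measured 1.74 to 3.52 CPM in OE and 1.53 to 3.8 CPM in control libraries. cyp-13A5 was lower in 5 of 5 pairs at Day 13, with values given above, and a log2 change of -1.30 ± 0.46 (SE, edgeR unadjusted p = 0.0147, adjusted p = 0.315). cyp-37A1 was lower in 4 of 5 pairs, with -1.63 ± 0.66 (SE, edgeR unadjusted p = 0.0279, adjusted p = 0.324), -2.76 in letters A to C and -0.24 in D and E. The next by p were cyp-31A3 (0.79 ± 0.45) and ugt-29 (-0.56 ± 0.36), which did not pass either. The intestinal marker sum differed between the strains in the same letters. In Day 13 libraries A to C it was 244 to 1115 CPM in OE against 2199 to 2710 CPM in control worms. In D and E it was 654 to 824 CPM in OE against 377 to 532 CPM in control worms. Most of it was mtl-2, at 196 to 1033 CPM in OE against 1826 to 2482 CPM in control libraries A to C. The log2 change between the strains was -1.30 for mtl-2, -2.21 for asp-1, -0.47 for elt-7 and -0.06 for lys-8. It was 0.32 for act-5, 0.28 for ifb-2, 0.15 for spl-1 and 0.68 for pho-1. None of these passed (edgeR), and vha-6 was not tested. Other tissues differed as well. The body muscle sum in A to C was 24.6 to 65.3 CPM in OE against 122 to 174 CPM in control worms. In D and E it was 29.7 to 30.9 CPM in OE against 20.1 to 21.3 CPM in control worms. The neuron, hypodermis and pharynx sums in A to C were also lower in OE worms without overlap, while the germ line and sperm sums overlapped. The part of these markers in the differences of members was not tested.

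At L4 the smallest p belonged to gst-13, which was higher in OE worms in 5 of 5 pairs, at 2.4 ± 0.792 CPM against 1.28 ± 0.127 CPM in control (SD, n = 5 each), a log2 change of 0.86 ± 0.30 (SE, edgeR unadjusted p = 0.0153, adjusted p = 0.403). gst-42 was also higher in 5 of 5 pairs (0.96 ± 0.46), and cyp-23A1 was lower in 5 of 5 pairs (-0.97 ± 0.45), with 1.84, 1.26, 0.913, 2.71 and 4.56 CPM in OE L4 against 4.12, 3.71, 4.36, 3.44 and 5.97 CPM in control L4. cyp-31A2 (1.39 ± 0.66) and gst-28 (0.99 ± 0.51) were higher in 4 of 5 pairs. None of these passed.

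**Figure D4:**
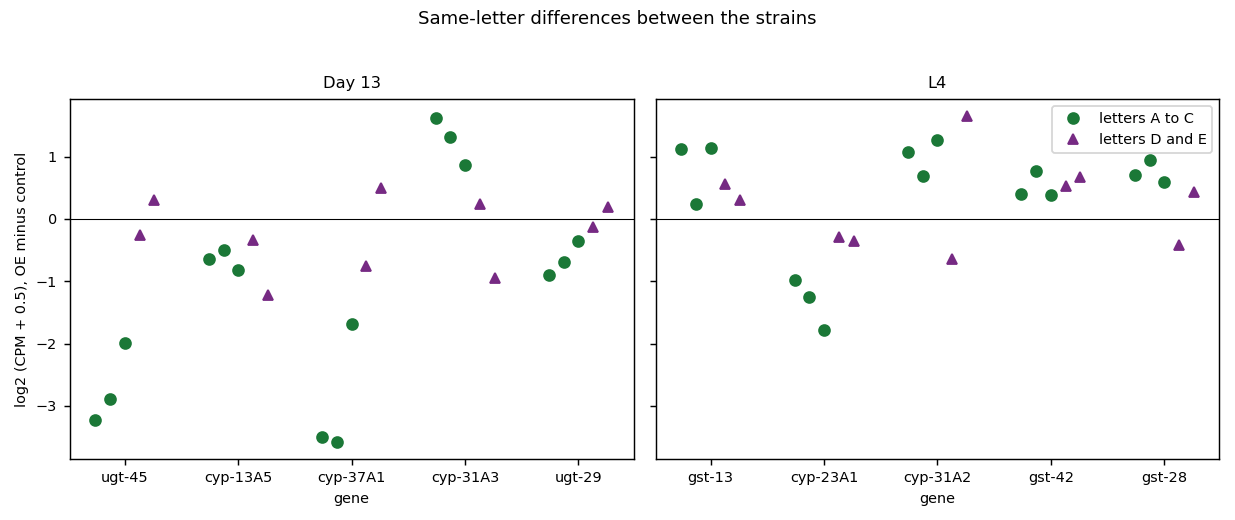
Difference between OE and control libraries of the same letter in log2 (CPM + 0.5) (y axis), for the 5 members with the smallest p at Day 13 (left) and at L4 (right). Circles are letters A to C and triangles letters D and E. For ugt-45 and cyp-37A1 the 3 circles lie at -1.68 or lower while the triangles lie between -0.75 and 0.50.

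The strain comparison depended on the letters. In letters A to C alone, 10 members passed at Day 13 (5 higher and 5 lower in OE worms), but there 47% of all tested genes passed, with 23.7% of all tested genes higher. At L4 13 members passed (10 higher and 3 lower), beside 32.8% of all tested genes, with 15.7% of all tested genes higher. In letters D and E alone, with 2 libraries in a group, no member passed at either age, beside 0% of all tested genes at Day 13 and 0.335% at L4, and 2 members had an unadjusted p under 0.05 at Day 13 and 2 at L4 (edgeR). Of the 10 that passed at Day 13 in A to C, 4 had the same direction in D and E. Those called lower were cyp-37A1, cyp-23A1, ugt-45, ugt-29 and cyp-13A5, and of these cyp-13A5 (-1.30 and -1.45) and cyp-37A1 kept their direction. Of the 12 members called at L4 that were also tested in D and E, 10 had the same direction, with smaller values such as 1.42 in A to C and 0.02 in D and E for ugt-46. The share of members called in letters A to C was below that of all genes.

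Within the groups the levels of some members followed the letters. In 11 members letters D and E lay above letters A to C in all 4 groups, where 6.73% of the 12732 genes with at least 10 counts did so. They were cyp-32B1, cyp-33C8, cyp-33C9, gst-1, gst-26, gst-39, gst-40, gst-5, gst-7, ugt-61 and ugt-64. In 1 member, cyp-36A1, letters D and E lay below A to C in all 4 groups, as in 5.13% of all such genes. cyp-33C8 measured 2.17, 1.63, 1.22, 2.9 and 7.72 CPM in OE Day 13 libraries A to E and 0.717, 0.335, 0.456, 5.09 and 6.41 CPM in OE L4, and 0.376, 0.212, 0.397, 8.38 and 2.3 CPM in control Day 13 and 0.594, 0.142, 0.144, 5.88 and 4.08 CPM in control L4. The letters are names of replicates in the titles, and nothing in the labels says what letters A to C share.

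**Figure D5:**
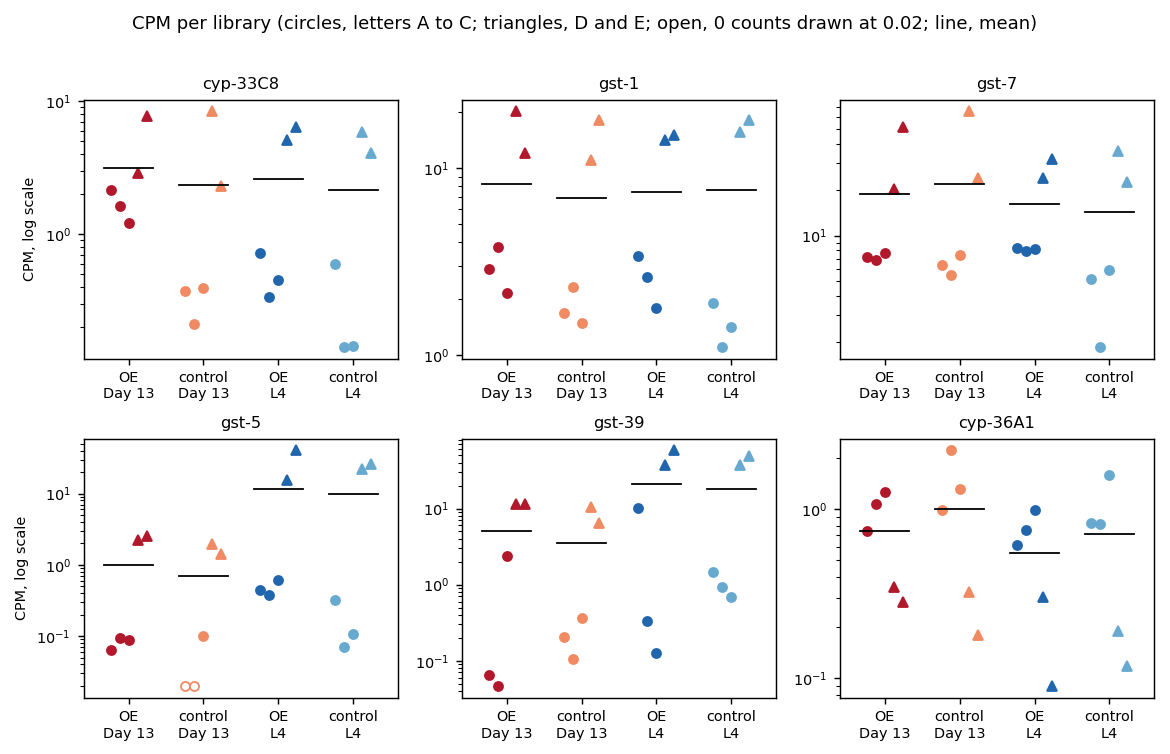
CPM per library (y axis, log scale, 0 counts drawn open at 0.02) of 6 members in the 4 groups (x axis), with the mean as a line. In cyp-33C8, gst-1, gst-7, gst-5 and gst-39 the triangles (letters D and E) lie above the circles (A to C) in each group, and in cyp-36A1 they lie below.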

How the data were processed

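Whole-worm RNA was measured by 3SEQ, an assay of transcript 3′ ends, in 5 libraries of each of 4 groups, each made from a pooled worm population. The authors deposited unnormalised read counts of each gene in each library. The submitters' processing notes name Bowtie 0.12.7, while the genome build, gene annotation, counting program, use of strand and handling of duplicate reads are not given in the sources used here. Groups and letters were taken from the sample titles. Of 3 further columns that lack a header, 1 held values, and none was used. No row lacked a gene name. The reads carry no molecular identifiers, and the floor of 3 counts covers counting error only. The SE and SD values also hold the spread between libraries.

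Genes were named by matching sequence names to the Ensembl 115 annotation of WBcel235, which placed 20881 of 21383 genes, and coordinates come from it. One further gst gene is not reported here. The members, the marker and pathway lists and the rules for naming genes were chosen with earlier results of these data known. The named genes were the 4 most abundant members of each family, the 5 with the smallest p in each strain comparison, and 20 members of textbook interest. Also named were the members called between the ages with the largest changes, up to 4 in each direction and family. Only members that moved the same way in all 5 same-letter pairs could enter by that last route. gst-36 and gst-39, and the yolk gene vit-2, were added after their values were seen.

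The robust quasi-likelihood test of edgeR 4.0.16 (R 4.3.3) was run on all genes that passed filterByExpr, with TMM factors. The test reports no SE, so each SE of a log2 change is the size of the change divided by the square root of its F value. Calls were made at 10% after Benjamini-Hochberg adjustment, as in the study, whose rank products were not run here. Each fit held the 10 libraries compared, or all 20 for the difference of age changes. Adjusted p-values are over all genes tested, and only the members' values are given. CPM values were scaled with TMM factors over 20 libraries, and 0.5 was added before same-letter log2 differences. The scripts were tested on simulated counts with known changes. Alternatives were DESeq2 1.42.0, its size factors, totals without the top 3% of genes, which held 90.8% to 96.7% of the counts of a library, a filter of 10 counts in 1 library, a replicate block by letter, each set of letters alone, and each library left out. Deviations of same-letter libraries from their group means were correlated across genes. The correlation was 0.41 to 0.65 in the age comparison of control worms and 0.51 to 0.80 in the strain comparison at L4, so same-letter libraries deviated together there. Libraries of different letters were not correlated, so pairing by letter cannot be told apart from the split of A to C from D and E. In the other comparisons the pairs ran from 0.06 to 0.63 (strains at Day 13) and from 0.09 to 0.60 (ages in OE worms), so 1 pair in each was under 0.1, the limit that every pair had to pass, and the letters were not taken as pairs. Separate populations stand behind the replicates by the study's methods.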

Additional observations from a re-analysis of the deposited data

Results flagged for a closer look

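In 10 of 130 groups of 5 libraries of a named member with at least 10 counts in 1 of them, 1 library lay far above the other 4, with a gap to the next value of more than 0.71 of the whole range. For normally distributed values chance flags about 1 in 20 groups. Many CPM values here rest on few counts, and letters D and E often stood apart, so that rate may not hold. No rate over all genes is given. Of the 10, 9 were libraries D or E.

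In control Day 13, library D had 4.17 CPM of the eggshell gene cyp-31A2 against 0.297 to 1.22 CPM in the other 4, 8.38 CPM of cyp-33C8 against 0.212 to 2.30 CPM, and 0.647 CPM of cyp-29A2 against 0.0707 to 0.171 CPM. In control L4, library D had 1.05 CPM of cyp-31A2 against 0.0591 to 0.277 CPM. In OE Day 13, library E had 7.72 CPM of cyp-33C8 against 1.22 to 2.90 CPM, 7.40 CPM of the mitochondrial P450 gene cyp-44A1 against 1.00 to 2.24 CPM, and 1.95 CPM of gst-26 against 0 to 0.232 CPM. Library D of that group had 0.463 CPM of gst-27 against 0.0933 to 0.174 CPM, and library B had 0.886 CPM of ugt-22 against 0.131 to 0.244 CPM. In OE L4, library E had 1.90 CPM of gst-42 against 0.664 to 0.98 CPM.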

How the results depend on the processing

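The number of members called between the ages (24 in OE worms and 21 in control worms) was 42 and 40 when genes needed only 10 counts in 1 library of the fit, and stayed within 1.5 times under the other settings, at 24 to 28 and 20 to 24 when each library was left out. The 0 calls between the strains became 2 at Day 13 and 1 at L4 with DESeq2, and 10 and 13 in letters A to C alone, and ran from 0 to 1 at Day 13 (1 without control Day 13 E) when single libraries were left out. The 0 calls for the difference of age changes became 1, ugt-45, in letters A to C alone. Members named for large changes between the ages had to move the same way in all 5 same-letter pairs, so a reversal had little room. Of 37 called changes of named members, none reversed under any of these alternatives and 3 lost their call under some: cyp-31A2 and gst-5 in OE worms and cyp-35C1 in control worms, the last also with totals without the top 3% of genes (log2 change -1.67). Those totals moved the median of all genes by 0.34 (OE) and 0.49 (control) on the log2 scale in the age comparisons and by 0.25 and 0.24 in the strain comparisons, and DESeq2 size factors moved it by -0.14 in OE worms between the ages. With those totals the calls over all genes were 2955 higher and 1727 lower in OE worms and 3185 and 1683 in control worms, against 2291 and 2070, and 1986 and 2150, with TMM factors. The replicate block gave 27, 25, 0, 0 and 0 calls in the age comparisons of OE and control worms, the strain comparisons at Day 13 and L4 and the difference of age changes. Shares over all genes are not given for the block or for the filter of 10 counts in 1 library. In OE worms between the ages and at Day 13 between the strains 4 of 5 same-letter pairs correlated above 0.1, so the letters were not taken as pairs there. In OE worms the block also called ugt-50 (0.92, adjusted p = 0.0994) and cyp-31A3 (1.21, adjusted p = 0.0223) higher at Day 13.

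Changes that were not called turned round as follows, and the cause was not tested. Between the ages in OE worms, cyp-23A1 (-0.14) was 0.31 with totals without the top 3%, 0.03 with the block and 0.48 in letters A to C. gst-1 (0.05) was -0.03 with DESeq2 and with its size factors and -0.05 in A to C, gst-7 (0.14) was -0.06 with the block and -0.37 in A to C, and cyp-33C8 (0.17) was -0.07 in D and E. In control worms, cyp-33C8 (0.09) was -0.12 with DESeq2 size factors, -0.13 with DESeq2, -0.09 with the block and -0.14 in A to C, gst-1 (-0.25) was 0.27 with totals without the top 3%, and ugt-50 (-0.26) was 0.13 with those totals and 0.17 in A to C. In A to C alone cyp-31A3 (0.86) was -0.21 and cyp-37A1 (-0.60) was 0.06, and in D and E alone ugt-45 (1.09) was -1.01. Between the strains at Day 13, in D and E alone, cyp-31A3 (0.79) was -0.44, ugt-29 (-0.56) was 0.02 and ugt-45 (-2.32) was 0.03. With single libraries left out, the age changes in OE and control worms ran from -0.45 to 0.80 and -1.53 to 0.80 for cyp-33C8, -0.07 to 0.67 and -0.31 to 0.95 for cyp-36A1, -0.30 to 0.73 and -0.37 to 1.35 for cyp-44A1, -0.54 to 0.45 and -0.90 to 0.38 for gst-1, and -0.66 to 0.50 and -0.53 to 1.12 for gst-7, from -0.35 to 0.19 for cyp-23A1 in OE worms, and from -0.40 to 0.03 for ugt-50 in control worms.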
